A study of Canis lupus familiaris with 77 samples.

Results

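The DLK1-DIO3 locus is an imprinted region that carries one of the largest miRNA clusters of placental mammals. The protein-coding genes DLK1, RTL1 and DIO3 are transcribed from the paternal chromosome, while the noncoding RNAs MEG3 and MEG8 and the miRNAs come from the maternal one. A first group of miRNAs lies near MEG3, with miR-433, miR-127, miR-432 and miR-136 antisense to RTL1, and a second, larger group runs from miR-379 to miR-410. In rodents and humans many of these miRNAs are known from neurons, where miR-134 limits the size of dendritic spines, and the locus is also active in embryonic tissues and in muscle.

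Members of the cluster were taken by name. Every miRNA whose first-listed name carries the number of a hairpin of this locus was included, which gave 65 of the 650 miRNAs with at least 1 read. Of the 65, 34 had a dog name (cfa), and 31 were annotated on the dog genome through a human (hsa) or rat (rno) sequence. In the RefSeq gene table of another dog assembly, 39 miRNA genes lay between DLK1 and DIO3, and 32 of them matched 57 members by name. Of the other 8 members, those of miR-376a could not be matched to a single gene, since MIR376A-1, MIR376A-2 and MIR376A-3 are all listed. The rest had no gene of that name there. Expression is given in RPM, the reads of a miRNA scaled to the total of miRNA reads in the same library. A count of 3 reads, taken here as the limit of detection, corresponded to 0.380 to 19.0 RPM depending on the depth of the library. This limit covers counting error only.

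The atlas comprised small RNA libraries of 16 tissues from untreated male Marshall Beagle dogs aged 10 months, which had been perfused with phosphate buffered saline before the organs were taken. Values that match a labelled sample were available for 76 libraries, with 5 per tissue except colon (4) and sciatic nerve (2), and 157871 to 7896424 reads on miRNAs per library. The paper included a further sciatic nerve sample in its enrichment analysis. A pooled sciatic nerve name among the deposited values matches no labelled sample and was not used here. The labels do not tie samples to dogs, name no region of the brain, and give no replicate numbers, so the tests treat the samples of a tissue as separate. Whether the 2 sciatic nerve samples come from separate dogs is not settled by the sources, and their spread may be technical. In bulk tissue, fewer cells of a type and less RNA per cell cannot be told apart.

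A few libraries stood apart by the marker miRNAs of their tissue. Skeletal muscle sample 4 had 676 RPM of the muscle miRNA miR-133a, against 36539 to 108825 RPM in the other skeletal muscle samples, and 4.54 RPM of miR-206 against 258 to 817 RPM. Testis sample 3 had 1 read of miR-202, where the other testis samples had 241 to 5345 RPM, and the lowest level of the germ cell miRNA miR-34c (582.1 RPM). Brain sample 3 had 23546 RPM of miR-192, a miRNA of gut and liver epithelium, against 2518 to 3151 RPM in the other brain samples, and 0.982 RPM of the neuronal miR-137 against 34.8 to 238 RPM. Its other neuronal miRNAs were not low. Brain sample 3 had the highest miR-9 of the brain samples (40348 RPM), and miR-124 (4442 RPM) and miR-128 (23306 RPM) lay within the range of the others. Counts for brain and sciatic nerve were also computed without the first 2 of these libraries, and the counts for brain without brain sample 3.

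The cluster made up a far larger part of the miRNA reads in brain than in any other tissue. Summed over the 65 members, it reached 78803, 76491, 57680, 84686 and 61455 RPM in the 5 brain samples, which is 5.77 to 8.47% of all miRNA reads. The 2 sciatic nerve samples followed with 23154 and 23336 RPM. No brain sample overlapped with sciatic nerve, and both sciatic nerve samples were above every sample of the remaining tissues. The brain median was 3.29 times the sciatic nerve median, 1.83 times on TMM-scaled library sizes (trimmed mean of M-values, the scaling of the count model below) and 4.85 times with miR-127 left out.

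Skeletal muscle (median 5010 RPM), thymus (4972), testis (3941), duodenum (3514) and colon (3041) came next, and their ranges overlapped with each other. Heart (1817), ileum (1005), pancreas (861), kidney (719) and lung (477) were lower, again with overlap between neighbours. Plasma (279), jejunum (269), liver (109) and bone marrow (61.6) held the least, and brain was 1242 times the level of bone marrow by median. Depth limited what could be seen in bone marrow, where 43.2 RPM, the lowest of its 5 sums, rested on 8 reads.

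**Figure D1:**
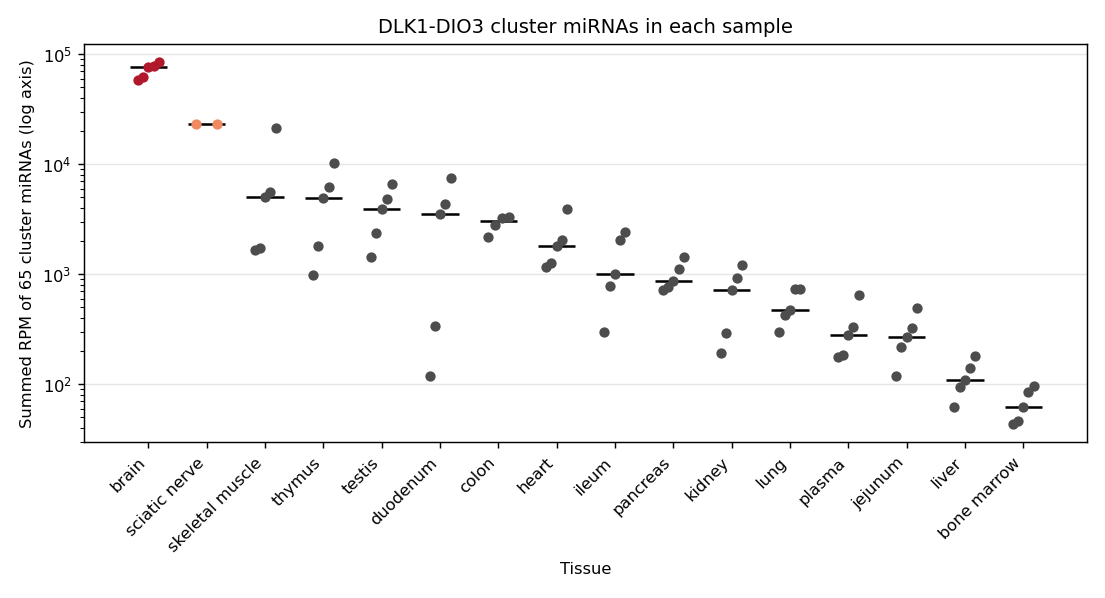
Summed RPM of the 65 cluster miRNAs (y axis, log scale) for each of the 76 libraries, grouped by tissue (x axis) and ordered by tissue median, with points for samples and bars for medians. The 5 brain samples lie between 57680 and 84686 RPM and the 2 sciatic nerve samples at 23154 and 23336 RPM, above all other samples, of which the highest is skeletal muscle sample 4 at 21203 RPM.

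Of the 65 members, 57 had their highest tissue median in brain (87.7%), a pattern that 32.5% of all 650 miRNAs showed. In 41 of the 57, sciatic nerve was the second tissue. Every brain sample was above every sample of every other tissue for 29 members, against 12.9% of all miRNAs. The 2 members cfa-miR-369 and hsa-miR-380-5p had a median of 0 in every tissue.

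A single miRNA, cfa-miR-127, which is antisense to RTL1, carried most of these reads. It reached 43461, 46992, 33178, 54739 and 44471 RPM in brain and 17365 and 16966 RPM in sciatic nerve. In brain it made up 61.4% of the cluster reads (55.2 to 72.4%), and in sciatic nerve 73.9%. The next most abundant members came from the miR-379 to miR-410 group. cfa-miR-411 had 13818, 10432, 9113, 8116 and 5765 RPM in brain and 2351 and 2971 RPM in sciatic nerve. cfa-miR-410, from the last miRNA gene in the RefSeq order, had 8432, 7604, 4936, 8879 and 4960 RPM in brain. In sciatic nerve it had 843 and 891 RPM. For each of these 3 miRNAs all brain samples were above all other samples.

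cfa-miR-381 had 2693, 2582, 4417, 2045 and 1304 RPM in brain, and its lowest brain sample was just below skeletal muscle sample 4 (1316 RPM). cfa-miR-380 ran from 1063 to 2953 RPM in brain, with a median of 1828 RPM. Together with miR-127, miR-411 and miR-410 these made up 92.02% of the cluster reads in brain. A further 13 members had a brain median between 109 and 1369 RPM. They were cfa-miR-889, cfa-miR-432, hsa-miR-136-3p, cfa-miR-433, cfa-miR-487b, cfa-miR-487a, hsa-miR-431-3p, cfa-miR-323, hsa-miR-382-5p, cfa-miR-485, hsa-miR-411-3p, hsa-miR-487a-5p and rno-miR-299a-3p. For 14 of the 18 members above 100 RPM every brain sample exceeded all other samples. The exceptions were miR-381, miR-432, miR-433 and miR-299a-3p, each with its lowest brain sample below a sample of sciatic nerve or skeletal muscle.

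**Figure D2:**
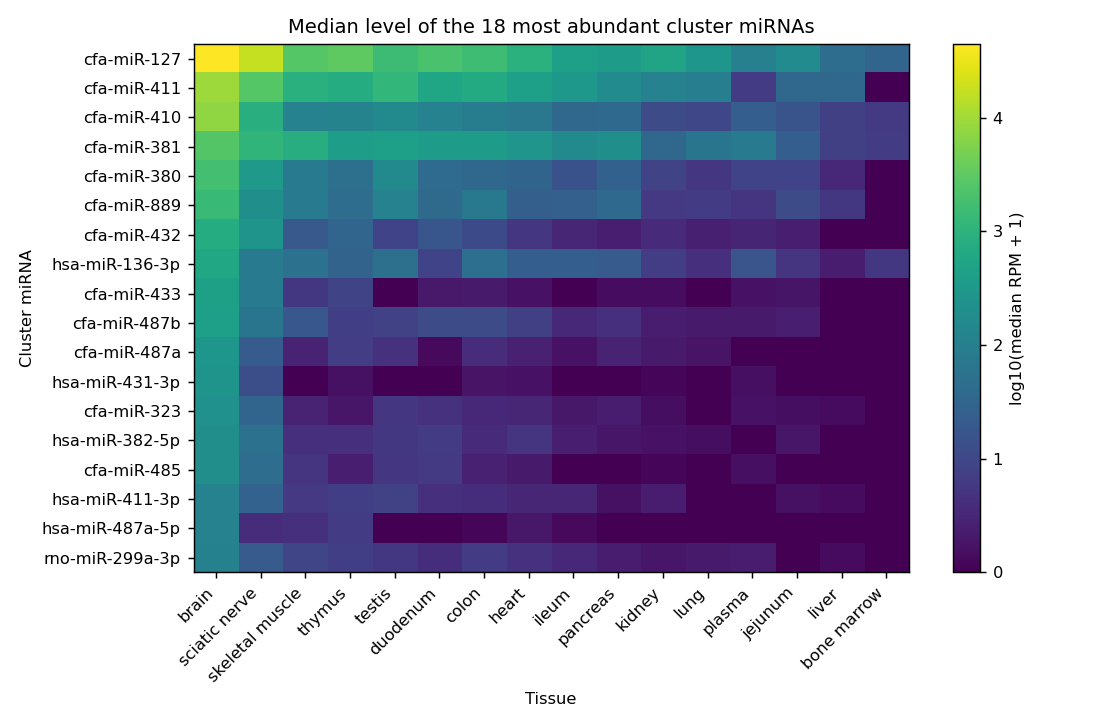
Median RPM of the 18 cluster miRNAs with a tissue median above 100 RPM (rows, ordered by brain level) in the 16 tissues (columns, ordered by the summed level of the cluster), coloured by log10(median RPM + 1). All 18 rows are highest in brain, and 17 are next highest in sciatic nerve, the exception being hsa-miR-487a-5p.

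The spread over the brain samples differed between members. The coefficient of variation was lowest for cfa-miR-127 (17.4%), hsa-miR-656-5p (25.9%) and cfa-miR-410 (27.2%). It was highest for cfa-miR-369 and cfa-miR-409 (both 224%, each found in 1 brain sample) and for hsa-miR-494-5p (176%), all of them near the limit of detection. Among the 18 abundant members, hsa-miR-382-5p (77.7%) and cfa-miR-432 (71.2%) varied most. For miR-432 the values were 769, 782, 169, 1763 and 611 RPM, and brain sample 3, with its high miR-192, was the low one.

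Tissue enrichment was tested after the criteria of the atlas, with the limit of 3 reads added here. A miRNA was called tissue enriched (TE) when its mean RPM in a tissue, divided by the mean over every sample from elsewhere, exceeded 5 and a two-sided exact rank-sum test gave an adjusted p below 0.05 over all 650 miRNAs. In brain 39 of the 65 members were TE, against 22.8% of all miRNAs. Of the 26 others, 22 never exceeded 3 reads in any library outside brain. For these 22 the fold was taken against 3 reads in each other library, as a lower bound, and this bound was under 5. With the observed values in place of the limit, an alternative added after seeing the data, 58 members and 188 of all 650 miRNAs were TE. Only 4 members fell short with reads elsewhere, and these were cfa-miR-494 (4.86-fold), cfa-miR-376a (4.29-fold), cfa-miR-493 (1.33-fold) and hsa-miR-493-5p (0.969-fold).

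The highest TE folds belonged to hsa-miR-431-3p (233-fold), hsa-miR-487a-5p (116-fold), cfa-miR-487a (101-fold), cfa-miR-433 (99.3-fold) and cfa-miR-410 (83.1-fold). miR-431-3p, from the MEG3 side, had 328, 258, 112, 263 and 166 RPM in brain, 13.4 and 11.2 RPM in sciatic nerve and a median of at most 1 RPM in the remaining tissues. The adjusted p of the exact test was 8.28e-07 for miR-431-3p, miR-487a and miR-410. miR-127, the most abundant member, had a fold of 28.4, and miR-411 and miR-381 had folds of 19.5 and 10.3.

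A stricter call, highly tissue enriched (HTE), set the brain median against the single highest sample outside brain and required a ratio above 5, again with 3 reads in place of the highest sample where no other library had more. It carries no p. HTE was met by 15 members, against 6.15% of all miRNAs. Among those above 100 RPM were miR-431-3p (19.3 times), miR-487a (13.3), miR-487a-5p (12.5), miR-410 (8.54), miR-136-3p (7.09), miR-323 (6.92), miR-487b (5.67), miR-889 (5.29) and miR-380 (5.15). miR-380 and miR-889 were just inside the threshold, and cfa-miR-377 (4.87) and miR-433 (4.62) just outside it. In sciatic nerve lay the highest non-brain sample of miR-127 (ratio 2.56), miR-411 (3.07) and miR-432 (2.42), all TE but not HTE. The number of HTE members was 18 with the observed values in place of the limit (56 of all 650 miRNAs). It fell to 4 on TMM-scaled library sizes (18 of all 650) and rose to 21 with sciatic nerve left out (48 of all 650). Without skeletal muscle sample 4 and testis sample 3, 39 members were TE and 17 HTE (148 and 43 of all 650).

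In a model of the counts over all 16 tissues (edgeR quasi-likelihood test), 51 members passed the filter on low counts, and 49 of these were higher in brain than the mean of the other 15 tissues, with none lower. Of all miRNAs tested, 45.2% were higher. Because 18 of the 51 passed the filter only through their brain reads, the 33 that also passed outside brain are the fairer set, and 31 of them were higher, against 38.6% of the miRNAs that passed in this way. The 2 members that did not pass the test were both arms of miR-493. Without the filter, 62 of the 65 were higher. The median log2 fold change of all miRNAs tested was 0.13 with TMM and 1.22 on library size alone, and the counts of members were 49 and 51. Without skeletal muscle sample 4 and testis sample 3 the count was 49.

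By this test cfa-miR-127 was higher in brain with a log2 fold change of 4.99 ± 0.37 (SE, adjusted p = 8.75e-20, edgeR). The SE given here and below is the absolute log2 fold change divided by the square root of the F statistic of the test. It is not a separate estimate of spread. hsa-miR-431-3p (7.33 ± 0.31) and cfa-miR-433 (7.18 ± 0.39) had the largest changes. cfa-miR-376a (2.11 ± 0.54) and cfa-miR-494 (2.50 ± 0.42) were the smallest among the named members that passed. For miR-493 the log2 fold changes were 0.12 ± 0.16 for the 5p arm and 0.18 ± 0.21 for cfa-miR-493. Both turned negative when single brain samples were left out, and these shifts went beyond the SE, which is thus too small here.

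The comparison of brain with sciatic nerve set central against peripheral nervous tissue. Of the 51 members tested in the same model, 18 were higher in brain (all miRNAs, 27.1%) and 2 were lower (17.9%). Among the 33 members that passed the filter on libraries outside brain, 10 were higher and 2 lower, against 22.9% higher and 20.1% lower of the 428 miRNAs that passed in this way. The median log2 difference of all miRNAs tested was 0.72, and that of the 51 members 1.86. With library size alone the count of higher members was 34. It was 25 without brain sample 3 and 23 without skeletal muscle sample 4 and testis sample 3. Leaving out either sciatic nerve sample lowered the count, in fits with 1 nerve sample. The shares of all miRNAs under these alternatives are not given, so the counts do not show whether members moved apart from all miRNAs. Both arms of miR-493 made up the lower members.

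Members differed in how much of the brain level was found in sciatic nerve. The sciatic nerve median of miR-127 was 38.6% of the brain median, that of miR-381 42.4%, and that of miR-432 32.6%. None of these passed the test (log2 differences 0.65 ± 0.99, 0.55 ± 0.86 and 0.89 ± 0.91). miR-410 at 11.4%, miR-487a at 7.53% and miR-431-3p at 4.75% were higher in brain, by log2 2.23 ± 0.82, 2.50 ± 0.81 and 3.40 ± 0.84 (adjusted p = 0.0229, 0.0101 and 7.84e-04, edgeR). miR-380, miR-889, miR-323, miR-487b, miR-136-3p and cfa-miR-382 were also higher in brain by the same test. hsa-miR-487a-5p had the largest difference among the members that passed outside brain (log2 4.39 ± 0.98). hsa-miR-539-3p, at 22.9, 12.7, 11.8, 16.9 and 6.08 RPM in brain, had no read in sciatic nerve, and like cfa-miR-382 it had entered the test through its brain reads.

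miR-493 went the other way. hsa-miR-493-5p had 2.54, 8.08, 1.96, 6.10 and 6.95 RPM in brain and 48.4 and 41.2 RPM in sciatic nerve. cfa-miR-493 had at most 4.66 RPM in brain and 16.5 and 18.9 RPM in sciatic nerve. The ranges of the 2 tissues did not overlap for either arm, and brain was lower by log2 -3.73 ± 0.85 and -3.64 ± 0.78 (adjusted p = 3.24e-04 and 1.45e-04, edgeR). No other tissue median reached that of the nerve. MIR493 was the first miRNA gene of the locus in the RefSeq order, ahead of MIR665 and the 4 genes inside RTL1.

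Along the locus, 25 of the 32 matched genes had every brain sample above both sciatic nerve samples when their arms were summed. Of single miRNAs, 41 of the 65 members and 32% of all 650 miRNAs had every brain sample above both. The 4 genes inside RTL1 were at 17.3% (MIR433), 38.5% (MIR127), 32.6% (MIR432) and 13.9% (MIR136) of the brain level in sciatic nerve. In the group from MIR379 to MIR410 the share ran from 1.72% for MIR539 to 60.8% for the rarely detected MIR329B among genes with reads in both tissues. Of the members that passed the filter outside brain, 3 of 11 on the MEG3 side were higher and 2 lower in brain, and 7 of 22 in the miR-379 to miR-410 group were higher, beside the 22.9% higher and 20.1% lower of all miRNAs.

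**Figure D3:**
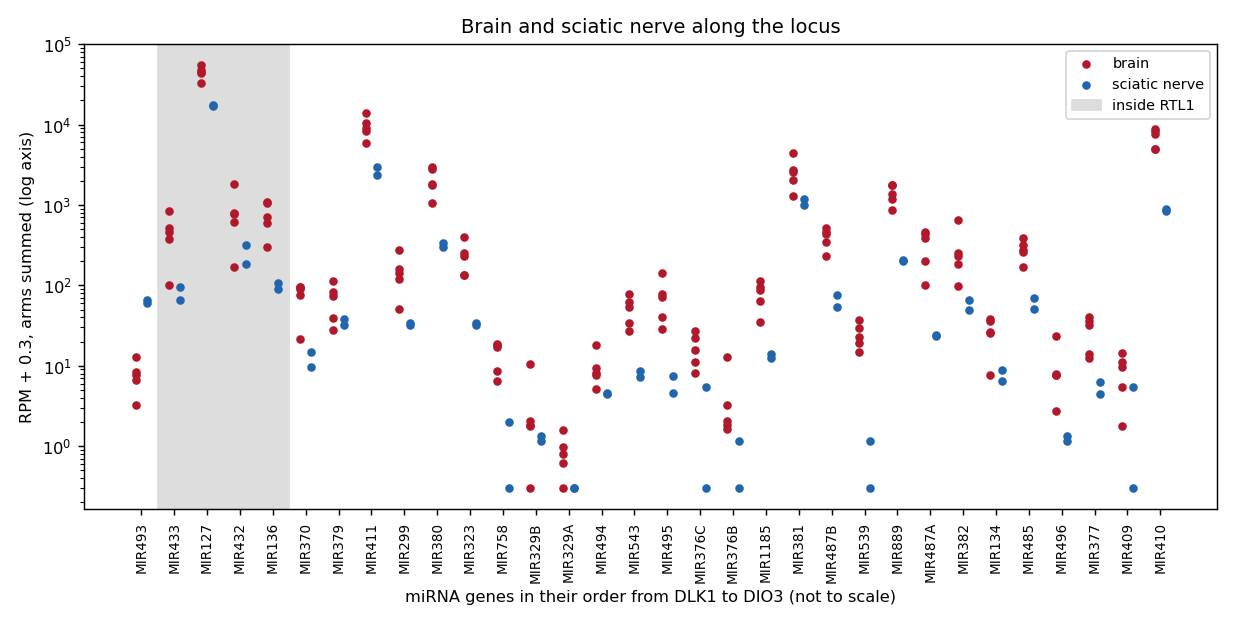
RPM summed over the arms of each miRNA gene plus 0.3 (y axis, log scale) in the 5 brain samples (red) and 2 sciatic nerve samples (blue), for the 32 genes with members in their order from DLK1 to DIO3 (x axis, not to scale), with the RTL1 genes shaded. MIR493, the first gene, is the one place where both sciatic nerve samples lie above all brain samples, and MIR127 is the most abundant in both tissues.

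Marker miRNAs of neurons and glia were also compared between brain and sciatic nerve. The summed level of the 4 neuronal miRNAs miR-124, miR-9, miR-128 and miR-137 was 42530 to 90889 RPM in brain and 859 to 861 RPM in sciatic nerve, where miR-124 had 2.06 and 0.859 RPM. The summed level of the 4 glial miRNAs measured, miR-338 and 3 forms of miR-219, overlapped, at 1426 and 2201 RPM in sciatic nerve and 837 to 2756 RPM in brain. Within this list miR-338 was higher in the nerve (1424 and 2199 RPM, at most 1236 RPM in brain), whereas miR-219-3p had 145 to 1435 RPM in brain and no read in the nerve, and both forms of miR-219-5p were also higher in brain. Outside brain the neuronal sum was not highest in the nerve, with medians of 3244 RPM in plasma and 1116 RPM in testis. In plasma this sum rested on part of the list, since 2 of the 4 neuronal miRNAs had no read in any plasma library. The part of these markers in the level of the cluster was not tested.

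The sciatic nerve was the leading tissue outside brain. In a model fitted without brain, 32 members passed the filter and 31 of them were higher in sciatic nerve than the mean of the other 14 tissues (all miRNAs, 30.8%). Of the 27 members that passed on the other tissues alone, 26 were higher (all miRNAs that passed in this way, 29.6%). In a fit without skeletal muscle sample 4 and testis sample 3, 28 of 29 members tested were higher. The largest change was that of cfa-miR-433 (log2 6.21), with 95.7 and 62.7 RPM in the 2 nerve samples and at most 49.9 RPM elsewhere outside brain. cfa-miR-432 (5.69), cfa-miR-485 (5.55), hsa-miR-382-5p (5.09) and cfa-miR-127 (4.99) followed. None of the members was TE in sciatic nerve. There 5 members were past the fold, and the smallest adjusted p of a member in the exact rank-sum test was 0.0507, from an unadjusted p of 7.02e-04 that is the smallest that 2 samples can give and that 9 miRNAs reached.

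Skeletal muscle came next. Of the same 32 members 27 were higher than the mean of the other 14 tissues, against 27.7% of all miRNAs. hsa-miR-376a-5p (log2 4.46), cfa-miR-299 (4.16), hsa-miR-487a-5p (3.83), cfa-miR-494 (3.81) and cfa-miR-433 (3.37) changed most. The samples were far apart. miR-127 had 2673, 713, 2850, 15405 and 1067 RPM, and the value of 15405 RPM was that of sample 4, the library with little miR-133a. Without this sample 23 members were higher. Here and below, counts from fits with other settings or fewer samples are given without the share of all miRNAs. The members tested in such fits can differ from these 32, so the counts do not show whether members moved apart from all miRNAs. Whether another tissue in sample 4 has a part in its level was not tested.

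**Figure D4:**
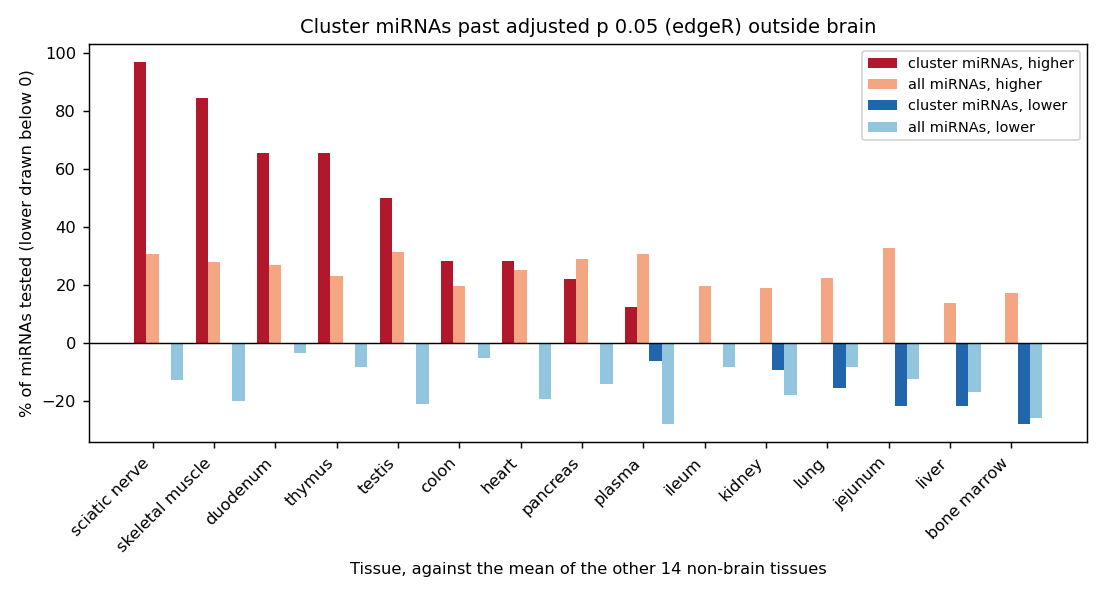
Share of the 32 cluster miRNAs tested (dark bars) and of all 426 miRNAs tested (light bars) that were higher (above 0) or lower (below 0, y axis in %) in each tissue than the mean of the other 14 non-brain tissues at an edgeR adjusted p under 0.05. Higher calls take in 31 members in sciatic nerve, 27 in skeletal muscle and 21 each in duodenum and thymus, while lower calls are seen in bone marrow, liver, jejunum, lung, kidney and plasma.

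In thymus 21 of the 32 members were higher (all miRNAs, 23%), led by hsa-miR-487a-5p, hsa-miR-431-5p and cfa-miR-127 (log2 3.51, 3.28 and 2.79). miR-127 had 803, 3110, 7817, 547 and 4422 RPM. The 2 low samples, 1 and 4, were the ones with 3742 and 5216 RPM of miR-128 and 2321 and 3055 RPM of the epithelial miR-141, against at most 402 and 38 RPM in the other samples. Without sample 3, the sample with the highest level, 5 members were higher, and with DESeq2 12.

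Duodenum also had 21 higher members (all miRNAs, 27%), among them cfa-miR-299, cfa-miR-379, cfa-miR-411 and cfa-miR-127 (log2 2.50, 2.48, 2.34 and 2.32). miR-127 was at 207.7 and 69.9 RPM in samples 1 and 2 and at 4299, 2817 and 2043 RPM in samples 3 to 5. The first 2 samples held 267076 and 385247 RPM of the epithelial miR-192 and the others 22363, 5188 and 77588 RPM. The count was 3 without sample 3, 12 without sample 4, 10 with DESeq2 and 12 on library size alone. The part of epithelial content was not tested.

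Testis showed 16 higher members (all miRNAs, 31.5%), with cfa-miR-494, cfa-miR-380 and hsa-miR-376a-5p among the largest (log2 3.79, 3.11 and 2.88). Its members did not share 1 pattern over the samples. miR-127 had 1534, 2895, 1663, 36.4 and 268 RPM. miR-411 ran from 701 to 2086 RPM with sample 4 the lowest. miR-380 in contrast had 109, 153, 163, 250.5 and 355 RPM, highest in the 2 samples where miR-127 was lowest. miR-410 had 121, 215, 164, 164 and 247 RPM.

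The share of miR-127 in the cluster reads was 31.997, 44.2, 42.2, 2.54 and 11.3% in the 5 testis samples. No other tissue had a sample below 21.6%. Sample 4 also had no read of miR-432, miR-433, miR-493 or cfa-miR-136, but in this shallow library 3 reads are 13.7 RPM. Sample 5 likewise had no read of miR-432, miR-433 or miR-493. The germ cell miRNA miR-34c was at 49237, 4631, 582.1, 93353 and 80187 RPM, and was thus highest in samples 4 and 5. Its part in these differences was not tested. Without sample 3, the one with the least miR-34c, 9 members were higher in testis, and without the filter on low counts 26. By median cfa-miR-494 (13.8 RPM) and cfa-miR-376a (4.55 RPM) were highest in testis of all tissues. Brain overlapped with testis for both, at 4.78 to 17.8 RPM of miR-494 and 0 to 6.10 RPM of cfa-miR-376a. The testis median of cfa-miR-376a was 1 read in sample 4, below the limit of detection.

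**Figure D5:**
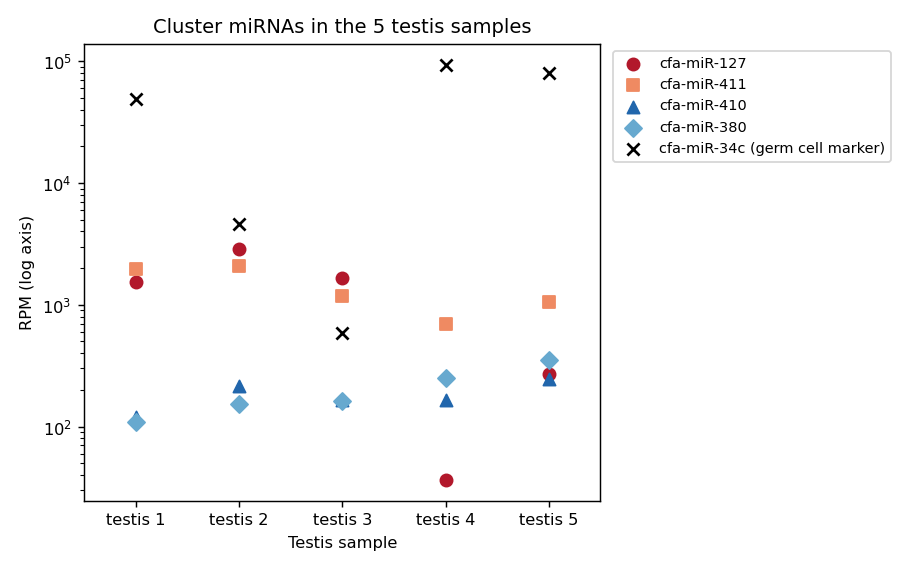
RPM (y axis, log scale) of cfa-miR-127, cfa-miR-411, cfa-miR-410, cfa-miR-380 and the germ cell marker cfa-miR-34c in each of the 5 testis samples (x axis). miR-127 falls from 2895 RPM in sample 2 to 36.4 RPM in sample 4, where miR-380 is at 250.5 RPM and miR-34c at 93353 RPM.

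In the remaining tissues the counts of members were closer to those of all miRNAs. Of the 32 members tested, 9 were higher in colon (all miRNAs, 19.7%), 9 in heart (25.1%) and 7 in pancreas (28.9%). In pancreas this share was below that of all miRNAs. miR-381 was among the higher members in all 3. In ileum no member was higher or lower (all miRNAs higher, 19.5%). The largest change in colon was that of cfa-miR-889 (log2 2.07), and in heart and pancreas that of hsa-miR-376a-5p (1.93 and 2.55). Leaving out single samples lowered the counts to 4 in colon (without sample 1), 5 or 3 in heart (without sample 1 or 3) and 4, 2 or 3 in pancreas (without sample 1, 2 or 4). DESeq2 gave 1 in heart and 2 in pancreas, and without the filter there were 20 in colon and 18 in heart. The DESeq2 and unfiltered fits did not use the filter that gave the 32 members, and the shares of all miRNAs are not given.

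Of the 32 members tested, 9 were lower than the mean of the other tissues in bone marrow (all miRNAs, 26.1%). In jejunum 7 (12.4%), in liver 7 (16.9%), in lung 5 (8.22%) and in kidney 3 (18.1%) were lower. The share of members was near that of all miRNAs in bone marrow and below it in kidney. miR-381 and miR-410 were lower in each of these 5 tissues. miR-127 in liver had 81.7, 21.6, 43.9, 62.8 and 41.0 RPM, a log2 difference of -4.34. In lung the 5 members were cfa-miR-136, cfa-miR-323, cfa-miR-381, cfa-miR-410 and hsa-miR-136-3p, and miR-127 was not among them. Without jejunum sample 2, 3 members were lower in jejunum, and without any single kidney sample 1 or 2 were lower in kidney. DESeq2 gave 27 lower members in liver, 24 in lung, 18 in jejunum and 6 in kidney. It was run without the filter that gave the 32 members, and the shares of all miRNAs are not given. These counts are therefore not comparable with those above.

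Plasma had a cluster of different make-up. miR-381 took 38.7% of the cluster reads (30.7 to 45.1%), against 3.38% in brain, and miR-127 31.4%. miR-411, the second member in brain, held 1.96% in plasma (1.24 to 3.46%). It had 3.64, 5.66, 11.5, 10.2 and 3.46 RPM and was lower than in the other tissues by log2 -4.49, as was miR-127 by -2.18 (2 members, all miRNAs 28.2%). hsa-miR-127-5p, cfa-miR-1185, cfa-miR-494 and cfa-miR-136 were higher (4 members, 30.8%), and 2 members were without plasma sample 3 or sample 4. Of the 32 members tested, the lower and the higher share were both below those of all miRNAs. DESeq2 gave 5 lower members in plasma. Plasma was dominated by the red cell miRNAs miR-451, miR-144 and miR-486, which summed to 543769 to 815725 RPM.

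Both arms of a hairpin were counted for 26 hairpins, and in brain the 3p arm held most reads in 16 of them and the 5p arm in 10. Arms of dog names without a suffix were set by the named partner. miR-411 and miR-432 came almost wholly from the 5p arm (median 99.1 and 99.0% in brain) and miR-127 from the 3p arm (5p share 0.173%). In each tissue with enough reads, miR-411 and miR-432 had medians above 95% on the 5p arm.

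The balance differed between tissues for miR-136 and miR-127, and between brain and nerve for miR-487a and some other hairpins. The 5p share of miR-136 was 14.4% in brain (11.6 to 15.5%) and 26.5% in skeletal muscle (21.7 to 32.1%, 4 samples with at least 20 reads), with no overlap. In testis it was 34.3% (33.5 to 44.2%, 3 samples). The ranges of sciatic nerve (11.4 and 19.0%), thymus, duodenum, pancreas and plasma overlapped with that of brain. For miR-487a the 5p share was 35.2% in brain (28.9 to 42.9%) and 11.1 and 13.0% in the 2 sciatic nerve samples. Sciatic nerve had few reads on this hairpin. Both nerve samples also lay outside the brain range for miR-127, miR-379, miR-381 and miR-382. For miR-382 the 5p share was 98.2 and 98.4% in the nerve and 73.1 to 95.5% in brain. The 5p share of miR-127 was 2.90 to 5.66% in plasma (4 samples with at least 20 reads). In brain it was 0.0966 to 0.222%, and in other tissues at most 1.85%. The plasma shares rested on 2 to 11 reads of the 5p arm. None of these shares was tested.

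Among the 18 abundant members the level on the log2(RPM + 1) scale followed the rest of the cluster over the 76 libraries with a Pearson correlation of 0.738 to 0.943 (median 0.891), and of 0.550 to 0.915 over the 71 libraries without brain. These values share library depth and the contrast between tissues and are descriptive.

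Of the 585 miRNAs outside the cluster list, cfa-miR-3958 was the most similar to the summed level of the cluster (Pearson correlation 0.917 over 76 libraries, against a median of 0.0826). It had 786, 629, 304, 627 and 331 RPM in brain, 85.5 and 74.7 RPM in sciatic nerve, and 127.02 RPM in skeletal muscle sample 4 against 4.69 to 24.6 RPM in the other skeletal muscle samples. The RefSeq table places MIR3958 inside the locus, between MIR495 and MIR376A-3. The name rule had left it out because its number is not on the list. cfa-miR-105b (0.792), cfa-miR-149 (0.790), hsa-miR-125b-1-3p (0.787) and cfa-miR-105a (0.772) were next.

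Of the other locus miRNAs searched for, only hsa-miR-1197 had reads, with a median of 14.9 RPM in brain (5.21 to 24.2 RPM) and at most 6.96 RPM in any sample outside it. Upstream on the same chromosome, cfa-miR-342 was also highest in brain (936 RPM), while cfa-miR-345 was not (1.27 RPM in brain, 15.9 RPM in bone marrow). At other imprinted loci, cfa-miR-335 had 271 RPM in brain and 86.7 RPM in testis. cfa-miR-483 was near its limit of detection, and hsa-miR-675-3p had a median of 0 in every tissue.

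Near-identical copies limit some members. The study kept reads that matched more than a single place in the genome, so reads of the miR-376 and miR-329 copies may be shared among them and their individual values are uncertain.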

How the data were processed

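Small RNA libraries were sequenced by the authors and their reads aligned without mismatches to the dog genome (CanFam3.1). The deposited counts are whole reads per miRNA and library, which the authors obtained from a merged dog, human and rat annotation, keeping reads with several matches up to a limit. RPM was computed here from these counts. 1 labelled colon sample without values was not analysed. 1 name of the table, a pooled sciatic nerve sample that matches no labelled sample, was not used.

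Members and lists were chosen with earlier results of these data known. Members were named in the text when above 100 RPM in a tissue, when highest outside brain, when past a threshold outside brain (at most 5 for each tissue by fold), when on the study's list of enriched miRNAs, or when among the 3 least or 3 most variable in brain, and the 5 miRNAs outside the list most correlated with the sum were added. Others named for their values were chosen after these were seen. Counts were compared with edgeR 4.0.16 (quasi-likelihood test, TMM, filterByExpr) in R 4.3.3, with all miRNAs in the fit and Benjamini-Hochberg adjustment at 0.05, once with 16 tissues and once without brain. TE was tested with the exact rank-sum test in Python 3.11.15. Alternatives were DESeq2 1.42.0, other scalings, other filters, thinned reads and single samples left out. The functions were tested on simulated data. No pair of libraries of a tissue was alike within sampling noise. The RefSeq table (assembly UU_Cfam_GSD_1.0) gave the order of the genes only.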

Additional observations from a re-analysis of the deposited data

Results flagged for a closer look

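Of 64 groups of samples examined for a sample far from the others (Dixon's criterion), 5 had one, and chance alone gives about 1 in 20. The summed level of the cluster in skeletal muscle sample 4 was 21203 RPM, with the other skeletal muscle samples at 1663 to 5587 RPM, and this library was also the one with little miR-133a. cfa-miR-299 had 163 RPM in brain sample 4. The other 3 were near the limit of detection, with cfa-miR-409 at 2.80 RPM in brain sample 2, and hsa-miR-494-5p at 1.36 RPM and cfa-miR-369 at 0.678 RPM in brain sample 4.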

How the results depend on the processing

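Brain enrichment (TE/HTE) depended on scaling and on the miRNAs tested. HTE members numbered 4 with TMM-scaled library sizes (18 of all 650 miRNAs). With only miRNAs above 100 RPM, which leaves 18 members, 18 were TE and 9 HTE (77 and 30 of all 266). After thinning to the smallest library 24 members were TE and 7 HTE (98 and 29 of all 605). Single omissions gave 39 to 41 TE and 13 to 16 HTE members. Brain had 34 members above sciatic nerve on library size alone and 34 with DESeq2 size factors in edgeR. Single omissions gave at most 25, and fewer when a sciatic nerve sample was left out. The shares of all miRNAs in these settings are not given. The ratio of summed RPM of brain to sciatic nerve was 1.83 after TMM and 4.85 without miR-127. Without the filter on low counts, the 14 other non-brain tissues had 172 higher calls in total, with 20 in colon, 18 in heart, 1 in ileum, 7 in plasma and 26 in testis, and 1 lower in kidney. DESeq2 gave 10 higher in duodenum, 1 in heart, 2 in pancreas and 12 in thymus, and 18 lower in jejunum, 6 in kidney, 27 in liver, 24 in lung and 5 in plasma. Library size alone gave 12 higher in duodenum, 1 in pancreas and 2 in plasma, and DESeq2 size factors 8 lower in lung. Single omissions gave 4 to 7 higher in colon, 3 to 22 in duodenum, 3 to 10 in heart, 2 to 6 in pancreas, 2 to 4 in plasma, 9 to 21 in testis and 5 to 24 in thymus, and 3 to 7 lower in jejunum and 1 to 2 in kidney. The cause of these differences was not tested. Against the other 15 tissues, hsa-miR-493-5p turned to -0.07 and -0.12 (log2) without brain samples 2 and 5 and reached 0.34 without sample 3, and cfa-miR-493 turned to -0.06 and -0.34 without samples 1 and 2 and reached 0.44 without sample 5. cfa-miR-376a, at -0.03 against sciatic nerve, became 0.69 with DESeq2, 0.78 on library size, 0.67 with DESeq2 size factors, 0.045 without the filter, 0.38 and 0.08 without brain samples 3 and 5, 0.80 without sciatic nerve sample 2 and 0.09 without skeletal muscle sample 4 and testis sample 3. Omissions outside brain and sciatic nerve and that last pair were chosen after seeing the data. No paired analysis was possible because the labels tie no samples of different tissues to a dog. Depth limits rare members: in the shallowest library 3 reads are 19.0 RPM.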
